A study of Mus musculus with 9 samples.

Results

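The myogenic regulatory factors are Myod1, Myf5, Myog (myogenin) and Myf6 (also called MRF4), 4 genes of the 46078 listed for the cultured cells and of the 38293 listed for muscle tissue. They were chosen by name as the complete family, and each was found in both gene lists. All encode basic helix-loop-helix transcription factors of the skeletal muscle lineage. Each pairs with a more widely expressed E protein and binds the E-box, the DNA sequence CANNTG, in the promoters and enhancers of muscle genes. In textbook accounts Myod1 and Myf5 commit cells to the muscle fate and mark proliferating myoblasts, Myog drives their terminal differentiation, and Myf6 is the member that mature fibers express most.

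The study sequenced RNA of C57BL/6 mice from gastrocnemius muscle (GAS, 3 libraries), primary myoblasts (MB, 2 libraries), myotubes formed from myoblasts by 3 days in differentiation medium (MT, 2 libraries) and myoblasts given 10 mM sodium-L-lactate (2 libraries). Per the study's methods, GAS came from young adult females of the J substrain. Control MB received an equal amount of the PBS in which the lactate was dissolved, the labels give no genetic modification, and the length of the lactate treatment is described only as overnight conditions. The labels call the libraries biological replicates without saying whether they came from separate animals or cultures, so the p-values below measure the spread between these libraries.

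The 3 GAS libraries held 19307793 to 19941574 counts and the 6 libraries of cultured cells 5198247 to 10839516. GAS was sequenced as poly(A) RNA and the cultured cells by Smart-seq2, a full-length cDNA protocol for small inputs, so no test was run between GAS and cultured cells and their levels were scaled separately. MT replicate 1 stood apart, with 28599 genes holding a count against 15548 to 17965 in the other cultured libraries, and the lowest correlation between replicates was that of MT (r = 0.869 across 21446 genes on the log scale). Marker genes were checked against the labels. The 4 adult myosin heavy chain genes Myh7, Myh2, Myh1 and Myh4 summed to 65940 to 71926 CPM (counts scaled to the size of the library) in GAS, 661 and 1134 CPM in MT and at most 3.14 CPM in MB and lactate-treated MB, while Pax7, a transcription factor of muscle stem cells, was at 26.8 and 19.5 CPM in MB. Markers of other cells also differed between groups. The 5 fibroblast markers (Pdgfra, Dcn, Lum, Col1a1, Col3a1) summed to 221 to 504 CPM in MB and 14009 to 25721 CPM in MT. Collagen genes made up most of these sums, with Col3a1 at 502 and 219 CPM in MB. In MT Col3a1 was at 11234 and 12205 CPM and Col1a1 at 14037 and 1695 CPM. Dcn was at 0 and 0.228 CPM in MB and 437 and 106 CPM in MT. Pdgfra was at 1.70 and 1.37 CPM in MB and 6.06 and 2.45 CPM in MT. Lum had 0 counts in both MB libraries and was at 6.45 and 0.734 CPM in MT. The 4 endothelial markers reached 12.1 CPM in MT replicate 1 but 0.245 CPM in MT replicate 2, and the 4 blood cell markers 17.9 and 2.81 CPM. The 4 mural cell markers summed to 14.6 and 8.44 CPM in MB and 129 and 203 CPM in MT, where Pdgfrb made up most of the sums. Schwann cell and adipocyte markers summed to at most 3.67 and 0.717 CPM in MT. The part of these differences in the results below was not tested. In bulk RNA, fewer cells of a type and less RNA per cell cannot be told apart.

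In the mm10 assembly with GENCODE M21 gene models, Myod1 (ENSMUSG00000009471) lies at chr7:46376474-46379099 on the plus strand, and Myog (ENSMUSG00000026459) at chr1:134289989-134292548 on the plus strand. Myf5 (ENSMUSG00000000435, chr10:107482908-107486134) and Myf6 (ENSMUSG00000035923, chr10:107492853-107494737) are neighbours on the minus strand, separated by 6718 bp with 0 annotated genes between them. Each gene has 1 annotated transcript of 3 exons, with exonic lengths of 1861 bp for Myod1, 2083 bp for Myf5, 1495 bp for Myog and 1263 bp for Myf6. No other gene of this annotation overlaps any of them.

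The RefSeq promoter table matched 2 of the 4 factors, Myog and Myf5, on GRCm38.p6, the assembly also called mm10. Both are shown, the first called higher in MT below and the second not. The 250 bases before each RefSeq start are given 5′ to 3′, with matches to the searched motifs in capitals. For Myog this is chr1:134289754-134290003 on the plus strand, whose last 15 bases lie inside the GENCODE first exon, and for Myf5 chr10:107486135-107486384 on the minus strand.
Myog promoter: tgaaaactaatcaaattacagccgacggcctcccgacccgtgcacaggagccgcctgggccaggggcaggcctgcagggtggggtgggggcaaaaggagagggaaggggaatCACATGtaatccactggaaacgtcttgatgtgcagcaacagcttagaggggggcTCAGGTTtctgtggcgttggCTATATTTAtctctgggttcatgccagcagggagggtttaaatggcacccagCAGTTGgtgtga
Myf5 promoter: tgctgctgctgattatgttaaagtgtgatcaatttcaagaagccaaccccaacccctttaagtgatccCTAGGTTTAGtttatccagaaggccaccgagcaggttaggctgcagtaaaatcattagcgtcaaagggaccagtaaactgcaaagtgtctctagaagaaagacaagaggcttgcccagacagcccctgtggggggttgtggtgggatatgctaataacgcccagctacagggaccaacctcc

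The Myog promoter held 2 E-boxes matching CANNTG. The first, CACATG, was at positions -138 to -133 and the other, CAGTTG, at -12 to -7, counted back from -1 as the last base before the start. It also held the MEF3 site TCAGGTT at -84 to -78. The MEF2 core, searched as CTANNNNTA and named after the MEF2 partners of the myogenic factors, was found once, as CTATATTTA at -64 to -56. In the Myf5 promoter 0 E-boxes and 0 MEF3 sites were found, and the capitals mark matches to the MEF2 core on both strands that overlap, at -182 to -173. Both strands were searched with motif forms chosen with the Myog promoter known. A longer MEF2 consensus, the E-box form CAGCTG and the TATA box TATAAA were also searched, with 0 matches in both promoters. Of 32841 RefSeq promoters of the same length, 66.2% held an E-box, 31.8% at least 2, 3.49% the MEF3 site and 19.0% the MEF2 core. Any E-box together with the MEF3 site and the MEF2 core was held by 173 (0.527%). The longer MEF2 consensus was held by 2.92%, CAGCTG by 13.0% and the TATA box by 12.4%. A match is a description of the sequence and not a measured binding site.

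Which of the factors the cells expressed differed between the groups. Levels are given as RPKM (CPM per kilobase of exon) where genes are compared with each other. In MB Myod1 was the most abundant, at 518 ± 226 RPKM (SD, n = 2), followed by Myog at 42.1 ± 26.3 RPKM, Myf5 at 14.3 ± 0.200 RPKM and Myf6, without a single count. In MT the order was Myog at 594 ± 92.0 RPKM, Myod1 at 138 ± 81.9 RPKM, Myf6 at 22.5 ± 16.7 RPKM and Myf5 at 7.16 ± 5.40 RPKM (n = 2). The last pair, Myf6 and Myf5, had overlapping ranges over the MT libraries, whereas all other neighbours in the MB and MT orders did not overlap. In GAS Myf6 led with 51.9 ± 6.17 RPKM (n = 3), ahead of Myod1 at 5.77 ± 1.02 RPKM and Myog at 4.76 ± 1.17 RPKM, whose ranges overlapped, and Myf5 at 0.769 ± 0.160 RPKM.

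Thus each of 3 factors led in 1 kind of sample. Myod1 made up 90.1% and 90.4% of the summed RPKM of the family in the 2 MB libraries, and 91.1% and 90.9% in lactate-treated MB. Myog made up 80.9% and 75.9% of it in MT, where Myod1 was at 12.2% and 22.5%. Myf6 made up 81.8%, 77.7% and 86.4% of it in GAS. These shares are ratios within a library and do not depend on how libraries are scaled to each other, but they do not remove differences between the library protocols. The summed RPKM of the family was 753 and 396 in MB, 654 and 869 in MT and 66.8, 57.7 and 65.2 in GAS, the last scaled separately. The MB and MT ranges of the sum overlapped, whereas those of the shares of Myod1 and Myog did not.

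**Figure D1:**
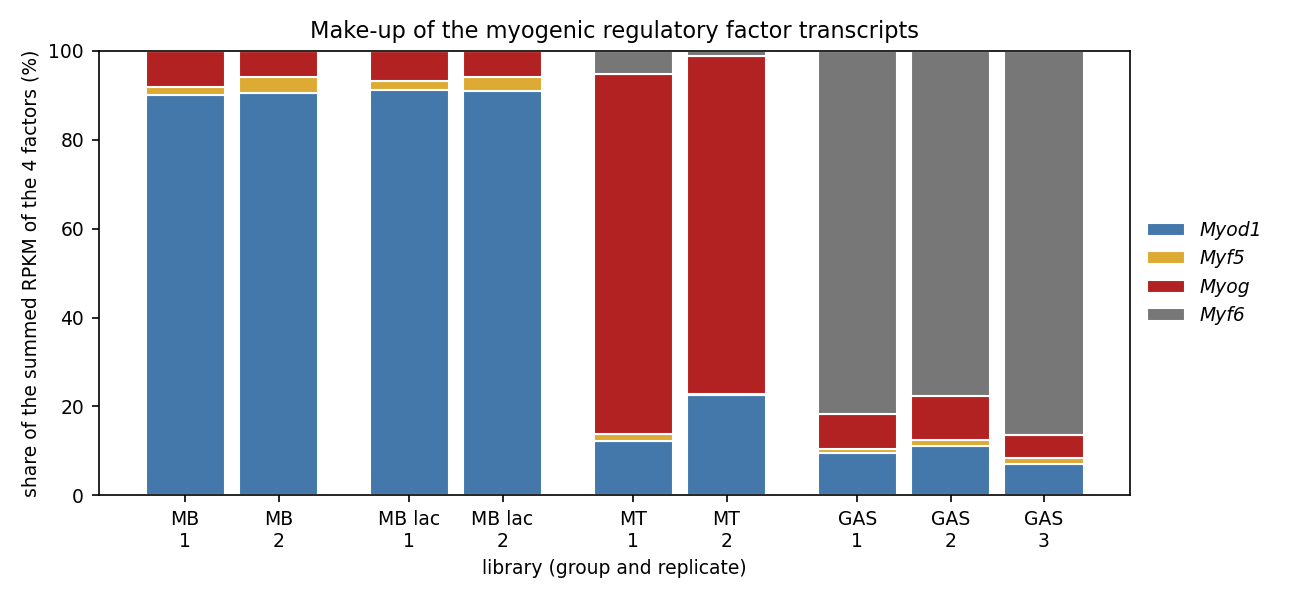
Share of each myogenic regulatory factor in the summed RPKM of the 4 genes (vertical axis, percent), with 1 stacked bar for each of the 9 libraries; MB lac is lactate-treated MB. Myod1 fills 90.1% to 91.1% of the bars of MB and lactate-treated MB, Myog 75.9% and 80.9% of those of MT and Myf6 77.7% to 86.4% of those of GAS.

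The leading factors were also abundant against other genes of the same library. By RPKM among 21596 protein-coding genes, Myog ranked 39th and 46th in the MT libraries, and Myod1 ranked 66th and 107th in the MB libraries. In MT Myod1 still ranked 562nd and 248th. Among 21250 protein-coding genes in GAS, Myf6 ranked 561st, 673rd and 551st, and Myf5, with 24 to 36 counts a library, between 9317th and 10098th.

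**Figure D2:**
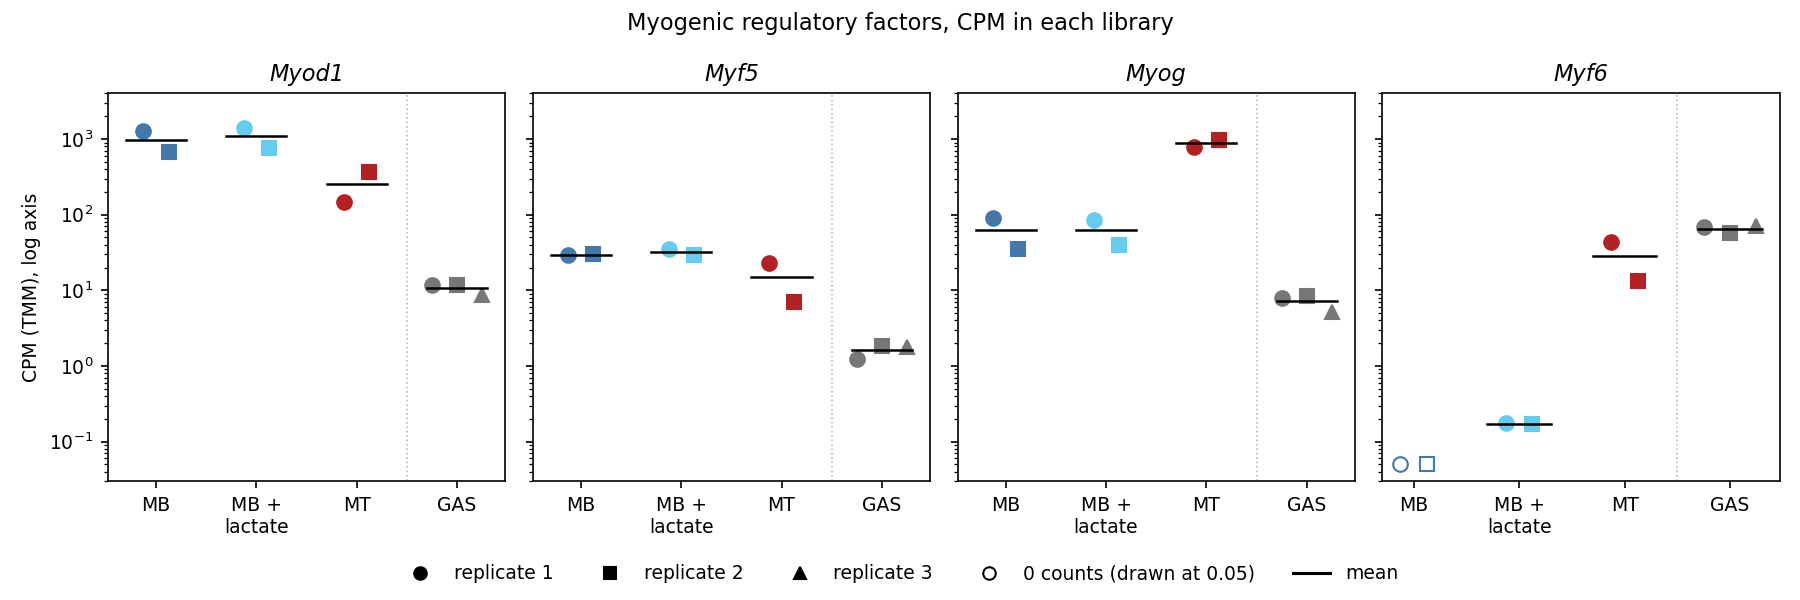
CPM of each factor (vertical log axis) in MB, lactate-treated MB, MT and GAS, with 1 point for each library, a bar at the group mean and open points for 0 counts, drawn at the bottom; GAS, right of the dotted line, was scaled separately. Myog is at 791 and 986 CPM in MT against 35.1 and 90.7 CPM in MB, and Myf6 has 0 counts in both MB libraries.

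MT were compared with MB to ask how the factors differ after differentiation. Myog was higher in MT and Myf6 appeared there, while the lower levels of Myod1 and Myf5 in MT did not pass the test. Genes were called at an adjusted p under 0.05 and an absolute log2FC (log2 fold change of MT over MB) over 0.5 in edgeR's quasi-likelihood test with Benjamini-Hochberg adjustment over 12921 genes. By this rule 11.0% of the tested genes were called higher, 6.86% were called lower and 17.9% were called in either direction. Of the 3 factors that passed the filter on low counts through MB as well as MT, 1 was called. Among all 10995 tested genes above the filter's level in both MB libraries, 13.9% were called, 5.81% higher and 8.07% lower.

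Myog, whose product is required for myoblasts to fuse into fibers, had 694 and 308 counts in MB and 9929 and 8057 in MT. This is 90.7 and 35.1 CPM in MB against 791 and 986 CPM in MT, so the groups lay far apart. The log2FC was 3.81 with a standard error of 0.62 and a 95% interval of 2.44 to 5.18, a 14.0-fold difference (adjusted p = 0.00276, edgeR). Every one of 14 alternative analyses, which include leaving out each library, called Myog higher, with log2FC between 3.21 and 4.52.

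Myf6 had 0 counts in both MB libraries, and 544 and 110 counts in MT (43.4 and 13.5 CPM). MB therefore lay below the limit that a count of 0 allows, set at 3 counts or 0.392 CPM in the MB library where it is highest. Against that limit the MT mean of 28.4 ± 21.1 CPM (SD, n = 2) was at least 72.4-fold higher, and the lower MT library at least 34.3-fold higher. The limit covers counting error only. Myf6 was called (adjusted p = 0.000784, edgeR), but it entered the test only through its counts in MT, and its fitted fold change is not given because it depends on the value assumed in place of 0. MT replicate 1 held 3.22 times the Myf6 of MT replicate 2, so its level in MT is imprecise.

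Myod1, which can turn other cell types into muscle, had 9659 and 5848 counts in MB and 1863 and 2976 in MT. The CPM were 1262 and 667 in MB against 148 and 364 in MT, so that both MT libraries were below both MB libraries. With a log2FC of -1.93, a standard error of 0.61 and a 95% interval of -3.28 to -0.57, Myod1 missed the threshold after adjustment (adjusted p = 0.0528, edgeR). This call depended on the method and on single libraries. Myod1 was lower in all 14 alternatives and was called in 6 of them, among them DESeq2 (adjusted p = 0.0055) and edgeR's likelihood ratio test (adjusted p = 0.0083). Leaving out MT replicate 2 gave a log2FC of -2.89 (adjusted p = 0.0181, edgeR) and leaving out MB replicate 2 gave -2.36 (adjusted p = 0.0036, edgeR). Without MT replicate 1 the log2FC was -1.41 (adjusted p = 0.446, edgeR).

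Myf5, the earliest of the family to appear in the embryo, had 225 and 263 counts in MB and 287 and 57 in MT. In CPM the MB libraries were nearly equal at 29.4 and 30.0, and both MT libraries were lower, at 22.9 and 6.97. Its log2FC of -0.999 had a standard error of 0.60 and a 95% interval of -2.34 to 0.34 (adjusted p = 0.280, edgeR), so neither a fall nor a small rise was outside the interval. Leaving out MT replicate 1 gave a log2FC of -2.09 and leaving out MT replicate 2 gave -0.56, and 0 of the 14 alternatives called Myf5.

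**Figure D3:**
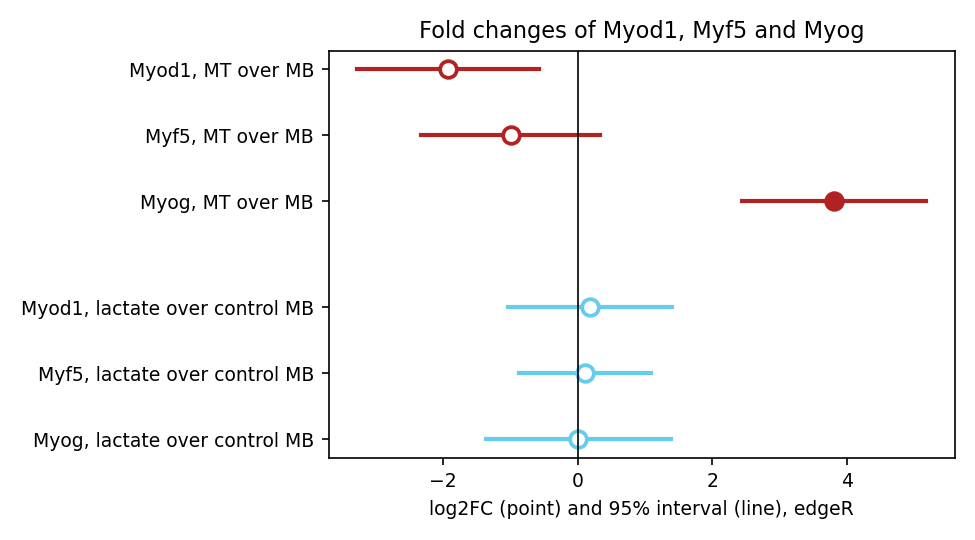
log2FC (horizontal axis) of Myod1, Myf5 and Myog for MT over MB and for lactate-treated over control MB, with points for the estimates, lines for their 95% intervals and a filled point where the gene was called; Myf6 is left out because MB held 0 counts. Myog in MT, at 3.81, is the filled point, the interval of Myod1 in MT ends at -0.57, and all 3 lactate intervals span 0.

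The MT replicates differed in the balance of the factors. MT replicate 1 held 3.28 times the Myf5 and 3.22 times the Myf6 of MT replicate 2, whereas replicate 2 held 2.45 times the Myod1 and 1.25 times the Myog of replicate 1. The RPKM of Myf6 over that of Myf5, the adjacent pair on chromosome 10, was therefore 3.13 and 3.18 in the MT libraries. In GAS this ratio was 93.4, 51.2 and 66.6. In MB, where Myf6 had no count, Myf5 was detected alone of this pair. The ratio of Myog to Myod1 RPKM was 0.0894 and 0.0656 in MB, 6.63 and 3.37 in MT and 0.823, 0.887 and 0.747 in GAS. The ranges of MB, MT and GAS did not overlap in this ratio, with GAS between MB and MT, which is a description and was not tested.

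In GAS, where fibers are mature, all 4 factors were detected in each library. Myf6 was at 69.0, 56.7 and 71.1 CPM, from 1359, 1117 and 1373 counts. Myod1 was at 11.8, 11.8 and 8.55 CPM, and Myog at 7.81, 8.42 and 5.13 CPM. Myf5 was lowest in each library, at 1.22, 1.83 and 1.76 CPM, yet above the 3-count limit of at most 0.155 CPM. Pax7, which marks muscle stem cells, was at 2.03, 2.44 and 2.33 CPM in the same libraries. The samples hold further cell types, with 4 of 4 endothelial markers (132 to 147 CPM in sum) and 5 of 5 fibroblast markers (477 to 565 CPM) above 3 counts in each. The same held for 4 of 4 mural cell markers (232 to 251 CPM) and 4 of 4 blood cell markers (16.2 to 17.5 CPM). It also held for 3 of 3 Schwann cell markers (11.3 to 23.7 CPM) and 3 of 3 adipocyte markers (19.7 to 40.7 CPM). The cells of origin of the factor transcripts were not tested. RPKM of Myf6 exceeded that of Myog 10.4, 7.96 and 16.4 times in GAS, whereas in MT it was 0.0649 and 0.0162 of it.

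Lactate-treated MB were compared with control MB to ask whether lactate by itself changes gene expression in MB. No factor differed beyond the spread between libraries, and the intervals were wide. Myod1 was at 1414 and 759 CPM with lactate against 1262 and 667 CPM in control MB, with a log2FC of 0.18, a standard error of 0.50 and a 95% interval of -1.04 to 1.39 (adjusted p = 1.00, edgeR). Myog was at 86.0 and 39.6 CPM with lactate against 90.7 and 35.1 CPM, with a log2FC of 0.01, a standard error of 0.57 and an interval of -1.36 to 1.38 (adjusted p = 1.00, edgeR). Its interval therefore stayed below 2.44, the lower end of the interval of Myog in MT over MB; both comparisons share the control MB libraries. Myf5 was at 34.9 and 29.4 CPM against 29.4 and 30.0 CPM, with a log2FC of 0.10, a standard error of 0.41 and an interval of -0.88 to 1.09 (adjusted p = 1.00, edgeR). The ranges of the groups overlapped for each of these factors. Myf6 had 1 count in each lactate library and 0 in each control, all within the 3-count limit, so it was not tested and no change was detectable at this depth.

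Of all 11804 genes tested with lactate, 0 (0.0%) were called by edgeR's quasi-likelihood test and 5 (0.0424%) had an unadjusted p under 0.05. None (0) passed the study's nominal threshold, p under 0.01 with an absolute log2FC over 0.5. At that threshold the study itself reports a small group of higher and lower genes. The reason for this difference from the study was not tested. DESeq2 called 0, with 3 genes at an unadjusted p under 0.05, and the likelihood ratio test called 0, with 11. These fits ignored the replicate number, so spread shared by same-numbered libraries counted as error. Deviations of same-numbered lactate and MB libraries correlated at 0.702. With the replicate number as a block, edgeR called 0 genes, while 166 had an unadjusted p under 0.05 and 13 passed the nominal threshold. The scarcity of small p-values without the block therefore does not show that lactate changed no gene. Leaving out 1 library moved the estimates of Myod1 between -0.23 and 0.69 and those of Myog between -0.54 and 0.83, and neither was called. MB replicate 1 held 1.89 times the Myod1 and 2.58 times the Myog of MB replicate 2. The lactate libraries showed the same, with 1.86 and 2.17 times. Differences between libraries of 1 group thus exceeded those between the group means, which were 965 and 1087 CPM for Myod1 and 62.9 and 62.8 CPM for Myog. The libraries numbered 1 also held 9.20% and 13.8% of their counts on 1 ribosomal RNA gene against at most 0.447% in those numbered 2. With that gene removed, no factor was called.

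Around the factors stand their dimer partners, inhibitors, upstream regulators, cofactors and target genes, 64 genes in 5 lists, of which 59 passed the filter for MT against MB. Of these 24 were called higher in MT, 7 were called lower and 28 were not called, against 11.0% and 6.86% of all tested genes. Genes below the filter's level in MB could enter the test only through MT. Of the 51 listed genes above that level, 1.19 CPM, in both MB libraries, 19 were called higher and 7 lower, against 5.81% and 8.07% of the 10995 such genes overall. The lists were chosen with earlier results of these data known, so these counts describe the listed genes and do not test them. Most of the higher calls were target genes. Of 23 muscle genes listed as targets, 22 were tested, 17 were called higher and 0 lower, with a median log2FC of 5.40 against 0.07 over all tested genes. Of the 19 target genes above the filter's level in both MB libraries, 14 were called higher, with a median of 5.24 against -0.13 over all genes above that level.

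Among the target genes, the largest differences were those of Casq2, a calcium-binding protein of the sarcoplasmic reticulum (log2FC 8.65), Myl1, a fast myosin light chain (8.31), Myh3, the embryonic myosin heavy chain (7.96), and Mybph, a thick filament protein (7.58). Myh3 rose from 13.1 and 8.21 CPM in MB to 1548 and 3812 CPM in MT. The fusion genes Mymk and Mymx were also called, with log2FC of 5.34 and 5.47. Not called were Chrna1 (log2FC 1.00), Chrnb1 (-0.23) and Chrnd (1.06), which encode acetylcholine receptor subunits, the intermediate filament gene Des (2.05, adjusted p = 0.0794, edgeR) and Cdh15 (-0.16), which encodes a cadherin of muscle cells. Chrna1 was already at 874 and 899 CPM in MB. Another receptor subunit gene, Chrng, which is used in fetal muscle, was called at a log2FC of 2.50.

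Among the E proteins, which pair with the factors, the 3 genes differed in direction. Tcf4 was higher in MT (23.4 and 58.9 CPM in MB, 177 and 224 CPM in MT, log2FC 2.27, adjusted p = 0.0145, edgeR) and Tcf3 was lower (178 and 75.3 CPM in MB, 18.6 and 21.0 CPM in MT, log2FC -2.69, adjusted p = 0.0065, edgeR). Tcf12 had a log2FC of 0.03 and was not called. Leaving out MB replicate 1 ended the call of Tcf4, and Tcf3 was called whichever library was left out.

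Of 16 genes that restrain the factors, 12 were tested, 3 were called higher, 3 were called lower and 6 were not called. Of the 10 above the filter's level in both MB libraries, 2 were called higher and 3 lower, against 5.81% and 8.07% of all genes above it. The lower genes were Id1, Id3 and Id2, whose products lack a DNA-binding region and hold E proteins away from the factors, with log2FC of -3.07, -2.63 and -2.38. Id3 was at 644 and 730 CPM in MB and 77.5 and 147 CPM in MT. The higher genes were Heyl (log2FC 6.54), a Notch target, and Bhlhe40 and Bhlhe41, bHLH repressors (4.80 and 3.15). Heyl had 6 and 0 counts in MB and entered the test through MT. Without MT replicate 1, 0 genes of this list were called lower, while 3 were called higher with any library left out.

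Of 12 upstream factors, all were tested, 0 were called higher and 2 were called lower. Of the 10 above the filter's level in both MB libraries, 0 were called higher and 2 lower, against 5.81% and 8.07% of such genes. The lower genes were Pitx3 and Pax7. Pitx3, a homeodomain factor, was at 111 and 26.9 CPM in MB and 3.59 and 3.43 CPM in MT (log2FC -4.30). Pax7 was at 26.8 and 19.5 CPM in MB and 1.12 and 1.59 CPM in MT (log2FC -4.11). Without MB replicate 2, 1 upstream factor was called higher and 4 lower, and DESeq2, the likelihood ratio test and a filter of 10 counts in every library each called 1 higher. Of 10 cofactors 3 were called higher and 1 lower. Of the 9 above the filter's level in both MB libraries, 2 were called higher and 1 lower, against 5.81% and 8.07%. Mef2c, which acts with the factors on muscle promoters, had 11 and 8 counts in MB, was above the filter's level in only 1 of the MB libraries, and rose to 563 and 864 CPM in MT (log2FC 9.23), with Mef2a (1.59) and the acetyltransferase gene Kat2b (2.37) also higher and the arginine methyltransferase gene Prmt5 lower (-1.83). Without MT replicate 1 only 1 cofactor was called higher and 0 lower. With lactate 0 of the 56 tested genes of these lists were called, and the list medians lay between -0.49 and -0.06, against -0.0034 over all tested genes.

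**Figure D4:**
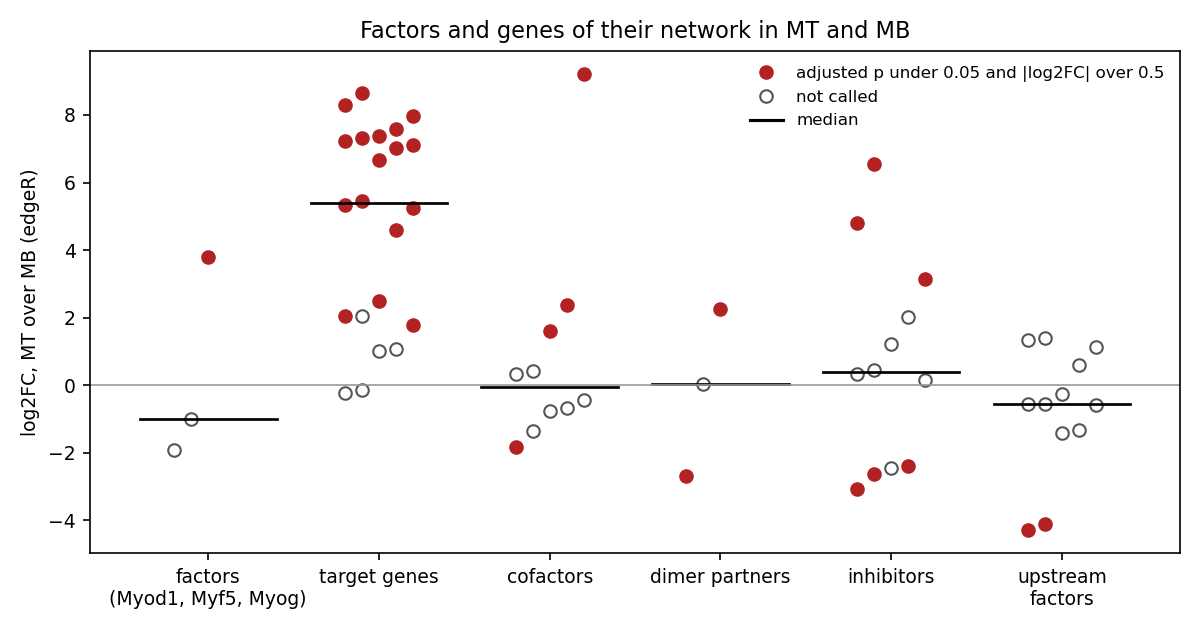
log2FC of MT over MB (vertical axis) for Myod1, Myf5, Myog and the tested genes of the 5 lists around them, with 1 point for each gene, filled where called, and a bar at the list's median; Myf6 is left out. Of the target genes 17 of 22 points are filled and above 0, while the upstream factors have 2 filled points, both below 0.

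Over the 6 cultured libraries, the correlation of log2(CPM + 1) between factors was 0.931 for Myog and Myf6, -0.926 for Myod1 and Myf6, and -0.743 for Myod1 and Myog. With Myf5 it was -0.763 for Myog, -0.622 for Myf6 and 0.495 for Myod1. Myf6 had 0 counts in each MB library and 1 in each lactate library. The 6 libraries fall into few groups and all pairs share them, so the values only describe how MT and MB line up. Among 11784 protein-coding genes, those most like Myod1 were Tomm20, a mitochondrial import receptor (r = 0.999), Mrps6, a mitochondrial ribosomal protein (r = 0.999), and Unc45a, a myosin chaperone (r = 0.998). Most like Myog were Adamts10 (r = 0.999), Fam198b (r = 0.998) and Itm2b (r = 0.998).

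Of the factors, Myf5 had the fewest genes above r = 0.95, 43 against 614 for Myod1, 802 for Myog and 899 for Myf6. The count for Myf6 includes genes that passed the filter only through MT, so these counts were not compared further. Closest to Myf5 were Dbf4, the activating subunit of a kinase that starts DNA replication (r = 0.997), Samhd1, an enzyme that breaks down nucleotides (r = 0.996), and Bsn (r = 0.992). Dbf4 was at 33.2 and 36.2 CPM in MB, 42.1 and 35.0 CPM with lactate and 21.4 and 4.65 CPM in MT, so it too differed between the MT replicates. The genes closest to Myf6, Wif1, Cmya5 and Larp6 (r = 0.999 each), had 0 counts in all 4 libraries of MB and lactate-treated MB. In GAS they parted, with Cmya5 at 3175 to 3630 CPM and Wif1 and Larp6 at most at 2.03 and 1.22 CPM.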

How the data were processed

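RNA was sequenced from 3 GAS, 2 MB, 2 MT and 2 lactate-treated MB libraries. The authors deposited unnormalized counts for each gene. According to the methods and the labels, the authors trimmed reads with Trim Galore 0.6.6, aligned them to mm10 with HISAT2 2.2.1 and counted them with featureCounts of Subread 2.0.1. The annotation release, strand setting and handling of multiply aligned reads are not given in the sources used here. Gene models came from GENCODE M21 and promoters from RefSeq. CPM used TMM factors, computed for GAS and for cultured cells separately, and RPKM divided CPM by exonic length. A count of 3 was used as the limit for 0 counts. With R 4.3.3, edgeR 4.0.16 (filterByExpr, TMM, quasi-likelihood test, Benjamini-Hochberg adjustment) tested MT against MB and lactate-treated against control MB in fits of the 4 libraries compared. Genes were called at an adjusted p under 0.05 with an absolute log2FC over 0.5. DESeq2 1.42.0 served as an alternative. The fits were also run on simulated data, where they recovered most of the largest changes but missed most of the smaller ones. Summaries used Python 3.11.15, pandas 2.3.3 and matplotlib 3.10.9.

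The factors and the gene lists were chosen with earlier results of these data known. All 95 genes of the lists were matched. All 4 factors are named with full values, with up to 4 called genes per list and direction with the largest log2FC, genes named as not called, the 3 protein-coding genes most like each factor, and markers by list; Mymk, Mymx and Chrng were added after their values were seen. Likeness was Pearson's r of log2(CPM + 1), with a pseudocount of 1. No test of gene sets was run. CUT&Tag data were not used here.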

Additional observations from a re-analysis of the deposited data

How the results depend on the processing

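Myog and Myf6 kept their calls in MT under every alternative that tested them (14 and 13), the exception being that Myf6 was removed by requiring 10 counts in every library, which left 1 factor called. Myod1 passed the threshold in MT with DESeq2 (log2FC -1.92), the likelihood ratio test (-1.93), no filter on low counts (-1.87) and crossed replicate numbers (-1.99), and ranged from -2.89 to -1.41 when 1 library was left out, with 2 to 3 factors called. Requiring 10 counts left 766 genes called higher in MT, and the likelihood ratio test called 1343 lower. Leaving out 1 library gave 962 to 4118 higher and 270 to 1570 lower. Unfiltered, 30070 genes were tested and their median log2FC was 1.82, against 0.07 over the 12921 genes of the reported fit. The estimates of Myod1, Myf5 and Myog moved less, from -1.93, -0.999 and 3.81 to -1.87, -1.04 and 3.85. Where an arm kept 1 library, it was assumed to vary like the other group.

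With lactate the estimate of Myog changed sign to -0.00074 without a filter and -0.0025 with all 6 cultured libraries in the fit. With 1 library left out it ranged from -0.54 to 0.83, and that of Myod1 from -0.23 to 0.69. Counts past the nominal threshold, 0 in the reported fit, were 1 with DESeq2, 1 without a filter, 13 with the replicate number as a block, 2 with all 6 libraries and that block, and 1 to 177 with 1 library left out. The labels do not say what the replicate numbers share. Deviations of same-numbered libraries correlated at -0.122 for MT and MB (12921 genes) and 0.702 for lactate and MB (11804 genes). The replicate block gave 1447 genes higher and 824 lower in MT and changed no call of a factor. With it the lactate estimate of Myod1 was 0.18 with a standard error of 0.21, against 0.50 without it. Crossing the numbers, chosen after seeing the data, gave 1192 and 867. Removing the ribosomal RNA gene, also chosen afterwards, gave 1421 and 886.

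Shares computed from raw counts instead of RPKM were 12.7% for Myod1, 1.90% for Myf5 and 77.0% for Myf6 in GAS, 91.2% for Myod1 in MB, and 91.9% for Myod1 and 5.19% for Myog with lactate. Within a library, shares from raw counts differ from those of RPKM only in that counts are not divided by exonic length.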
